A study of Mus musculus with 5 samples.

Results

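mmu-miR-192-5p, mmu-miR-194-5p and mmu-miR-215-5p are miRNAs of the liver, gut and kidney epithelium, and their Ago-bound levels and target sites were followed through mouse liver development. The members were chosen by name, as the entries of 5 interaction tables that carry 1 of these 3 miRNAs, out of 995 miRNAs listed in all. The tables come from Ago HITS-CLIP, in which tissue is irradiated so that RNA becomes crosslinked to the Argonaute (Ago) proteins, and the RNA recovered with Ago antibodies is sequenced. Livers of C57BL/6 mice were taken on the embryonic days that name the stages e12.5, e15.5 and e18.5, on postnatal day 7 (P7) and from adults aged 6 to 8 weeks, and series of 5 values are given in that order. The labels name no genetic change or drug in any group, and every liver received 3 exposures of 0.2 J/cm2 at 254 nm. Ago2 was precipitated throughout, but Ago1 antibodies were used in addition at P7 and in adults only, so an effect of the antibody and an effect of birth cannot be told apart. The labels give 1 sample per stage. The methods speak of 2 biological replicates for Ago2 and the supplement names 1 further replicate of e18.5. No source used here says which table or list, if any, holds a replicate, so each stage is treated as 1 library. No p-value was computed for differences between stages, and intervals cover only counting error or, for median read changes, the spread over sites.

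A miRNA guides Ago to mRNAs through its seed, the bases at positions 2 to 8, and Ago then lowers the stability and translation of the mRNA. The genes of miR-192, miR-194 and miR-215 lie in pairs, and hepatocyte transcription factors are known to drive their transcription. In liver they are counted among the miRNAs typical of differentiated hepatocytes, and targets in adhesion, migration and the cell cycle have been ascribed to them.

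The mature sequences, from RefSeq on GRCm38, show why the 3 members make up 2 seeds, with the seed in capitals.
mmu-miR-194-5p: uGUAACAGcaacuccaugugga
mmu-miR-192-5p: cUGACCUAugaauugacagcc
mmu-miR-215-5p: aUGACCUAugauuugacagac
miR-192-5p and miR-215-5p share 18 of 21 bases, and the changes from miR-192-5p to miR-215-5p were C1A, A12U and C20A, counted from 1 at the 5′ end. None of them falls in the seed, so nearly the same sites are listed for both and their reads cannot be divided between them. In adult liver 641 sites were listed for both, 28 for miR-192-5p alone and 13 for miR-215-5p alone, and 1 list of e15.5 and 1 of e18.5 hold no miR-215-5p entries. miR-194-5p has another seed and is encoded in 2 places. Mir194-1 (chr1:185313319-185313385) lies 195 bases before Mir215 (chr1:185313581-185313692), within the span of Iars2. Mir194-2 (chr19:6264643-6264728) lies 115 bases before Mir192 (chr19:6264844-6264932), between Atg2a and Ehd1. All 4 genes are on the plus strand.

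Sites are called by how much of the seed they match. A 6mer pairs with positions 2 to 7, a 7mer-m8 with position 8 as well, a 7mer-A1 has an A opposite position 1, and an 8mer has both. The sites below are examples, chosen from those whose reads are described in the results to show full and partial matches of both seeds, and their capitals mark the bases that match the seed together with the A opposite position 1.
Lamp2 3′UTR, miR-194: aatccacatgtgatCTGTTACA
Rabac1 3′UTR, miR-194: ctttggaaataaagCTGTTACA
Chp1 CDS, miR-194: tctcccgtgatgagCTGTTACA
Sepp1 CDS, miR-194: ggccaaagctctgctTGTTACA
Fam63b 3′UTR, miR-194: tgagctggagttttaTGTTACA
Hist1h4b 3′UTR, miR-194: agcgattttcttaaCTGTTACA
Igfals 3′UTR, miR-194: aggatagtgtttcaCTGTTACA
Igfals 3′UTR, miR-192/miR-215: catctcaaggggaTAGGTCAt
Cfb 3′UTR, miR-192/miR-215: ccaaggctatgagaAGGTCAA
Ppp1ca 3′UTR, miR-192/miR-215: ggtctcttgaataaAGGTCAA
Hspb8 3′UTR, miR-192/miR-215: tgcttggttgcgtTAGGTCAA
Top2a 3′UTR, miR-192/miR-215: aggtgaggaaagtTAGGTCAg
Hba-a1 CDS, miR-192/miR-215: ccacggctctgcccAGGTCAA
In mm10 these lie, in the same order, at chrX:38421686-38421707 (minus strand), chr7:24969766-24969787 (minus), chr2:119580734-119580755 (plus), chr15:3274740-3274761 (plus), chr9:70604976-70604997 (minus), chr13:23757341-23757362 (plus), chr17:24881795-24881816 (plus), chr17:24881844-24881864 (plus), chr17:34857084-34857104 (minus), chr19:4195387-4195407 (plus), chr5:116409120-116409140 (minus), chr11:98993219-98993239 (minus) and chr11:32283978-32283998 (plus). The seed match was found in the GRCm38 sequence at all 5222 sites of the members that were checked.

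The libraries held between 7781484 and 25546696 miRNA reads and between 76948 and 208193 Ago clusters, which are stretches of overlapping reads with at least 1 seed match. The tables of the 3 embryonic stages each consist of 2 lists, whose origin the labels do not give, and the lists were added up. Among miRNAs that mark other cells, the 6 blood-cell miRNAs summed to 63.2%, 52.7%, 40.4%, 13.0% and 6.92% of miRNA reads in stage order, with 0 of 6 higher in adult. The 2 arms of miR-122, the miRNA that defines hepatocytes, rose from 1.44% to 11.3%. The endothelial miRNAs rose from 0.699% to 5.31% (2 of 2 higher) and the mesenchymal ones from 0.259% to 0.791% (3 of 4 higher), while the epithelial miR-200 family stood at 0.238% and 0.218% (2 of 5 higher) with 1.33% at P7. No marker was at 0. In whole tissue, fewer cells of a type and less RNA per cell cannot be told apart.

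miR-194-5p and miR-192-5p became more abundant from e12.5 to the adult, and miR-194-5p became a leading miRNA of the postnatal liver. miR-194-5p made up 0.652%, 1.68%, 2.46%, 9.29% and 10.01% of miRNA reads from the first stage to the last. Its rank among all listed miRNAs went from 16 at e12.5 through 9 at e15.5 and e18.5 to 3 at P7 and 4 in the adult. miR-192-5p made up 0.266%, 0.781%, 1.17%, 1.37% and 1.82% at the same stages, with ranks of 42, 19, 15, 17 and 13. With the lists of a table summed and the larger gene copy used, both miRNAs were higher at each stage than at the one before, and together they went from 0.918% to 11.8% of the miRNA reads. miR-215-5p was close to absent, with 5, 11, 4, 48 and 32 reads from e12.5 to adult. In adult liver, miR-192-5p had 13043 reads for every read of miR-215-5p.

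The size of the rise differed between the members. On the log2 scale of rpm (reads in 1000000 miRNA reads), with 1 rpm added, miR-194-5p was 3.94 higher in adult than at e12.5 (15.4-fold, 95% counting interval 3.93 to 3.95), miR-192-5p 2.77 higher (6.84-fold, 2.76 to 2.79) and miR-215-5p 1.003 higher (2.004-fold, 0.65 to 1.36). At the level of miR-215-5p the added rpm sets most of that value, and without it the ratio was 7.13, from 5 and 32 reads. The median of 231 miRNAs with at least 100 rpm in either library fell by 1.87, and 26.8% of them rose at least 2-fold. Of these, 11 rose more than miR-194-5p and 22 more than miR-192-5p. miR-194-5p gained 1.36 from e12.5 to e15.5, 0.55 to e18.5, 1.92 across birth and 0.11 from P7 to adult. In the summed lists its largest step was the one from e18.5 to P7, where the antibody also changed. miR-192-5p gained 1.55 between e12.5 and e15.5, followed by 0.58, 0.23 and 0.41. Single lists do not settle which step was largest. Over the pairs of single lists the miR-194-5p steps lay between 0.81 and 1.51 from e12.5 to e15.5, between 0.12 and 1.64 to e18.5 and between 1.29 and 2.22 across birth. For miR-192-5p the first 2 steps lay between 0.79 and 2.46 and between -0.23 and 1.06. The shares of all such miRNAs that rose at least 2-fold in these steps were 8.48%, 15.9%, 21.2% and 10.3%.

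The balance between the 2 main members shifted around birth. The ratio of miR-194-5p to miR-192-5p reads was 2.45, 2.15, 2.10, 6.78 and 5.50 in stage order. Of the 2 gene copies of miR-194-5p in the tables, whose reads may overlap, the larger number was used here. With the copies of every miRNA summed the ratio was 3.67, 3.55, 3.43, 10.9 and 8.86, and miR-194-5p made up 11.6% at P7 and 11.1% in the adult, so that it was no longer higher in the adult. The ratio was more than 5 in both libraries after birth either way, and in the single embryonic lists it went from 0.907 to 3.07. The 2 lists of an embryonic table thus differed. For miR-194-5p the e12.5 lists gave 0.693% and 0.641%, those of e15.5 gave 1.22% and 1.83%, and those of e18.5 gave 1.99% and 3.81%. For miR-192-5p the pairs were 0.344% and 0.245%, 1.34% and 0.595%, and 1.14% and 1.24%. In the first e15.5 list miR-192-5p was above miR-194-5p. The lists of successive stages did not overlap for miR-194-5p, but for miR-192-5p the e18.5 values lay between those of e15.5, so these 2 stages did not differ beyond the spread of the lists. The P7 and adult values of miR-194-5p lay well above every embryonic list. For miR-192-5p the P7 value of 1.37% was close to the highest embryonic list, 1.34%.

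**Figure D1:**
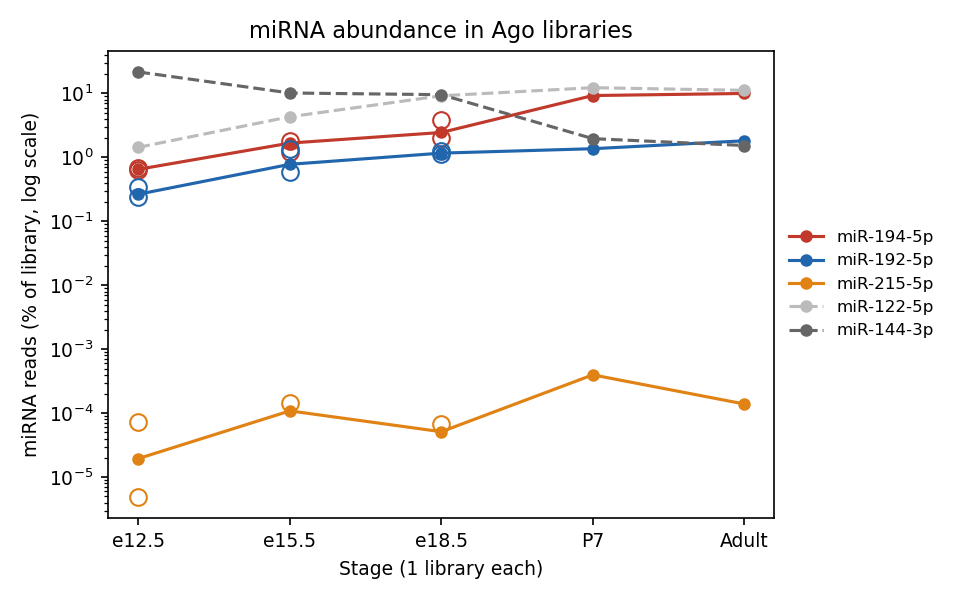
Percent of miRNA reads (log axis) at each of the 5 stages for the 3 members, for the hepatocyte marker miR-122-5p and for the blood-cell marker miR-144-3p, with filled points for the whole library and open circles for the 2 lists of an embryonic table. miR-194-5p rises from 0.652% to 10.01%, miR-192-5p from 0.266% to 1.82%, and miR-215-5p stays below 0.001%.

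The blood-cell miRNAs fell over the same stages in which these miRNAs rose, and all are shares of 1 total. When miR-142a-3p, miR-144-3p and miR-451a, which held 60.9% of the miRNA reads of the first library and 6.59% of the last, were left out of the total, the changes were 2.69 for miR-194-5p and 1.52 for miR-192-5p. Apart from the added rpm, this choice lowers the change of every miRNA by 1.26. Against miR-122-5p, miR-194-5p had 0.453, 0.387, 0.267, 0.753 and 0.894 of its reads from the first stage to the last. With the gene copies of every miRNA summed these values were 0.678, 0.641, 0.436, 1.21 and 1.44. miR-194-5p was then above miR-122-5p at P7 and in the adult. miR-192-5p had 0.185, 0.180, 0.127, 0.111 and 0.163 of the miR-122-5p reads. Relative to the hepatocyte marker, miR-194-5p was thus lower before birth and higher after it. miR-192-5p was close to equal at e12.5 and e15.5, and its e15.5 lists alone gave 1.34% and 0.595% of miRNA reads. Its ratio was not worked out by list, so its highest stage is not settled.

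The opposite arms of the precursors were rare. miR-192-3p had 213, 170, 376, 521 and 6183 reads from e12.5 to adult. miR-192-5p therefore exceeded its partner arm 319-fold at e12.5 and 67.5-fold in adult liver. miR-194-2-3p had 104, 253, 27, 397 and 867 reads, and neither miR-194-1-3p nor miR-215-3p was listed at any stage.

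Among 108 miRNAs with at least 1000 rpm in some library, the profiles most like miR-194-5p over the 5 libraries were let-7c-5p (Pearson r = 0.991 of log2 values), miR-190a-5p (0.991), let-7b-5p (0.989), miR-99a-5p (0.976) and miR-125a-5p (0.974). Those most like miR-192-5p were miR-122-5p (0.979), let-7g-5p (0.958), let-7b-5p (0.932), miR-139-5p (0.928) and miR-194-5p (0.920). These values describe 5 points that share libraries and the fall of the blood-cell miRNAs, and no test was made.

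Sites of both seeds were found in all libraries, and those of miR-194 made up a growing share of the Ago clusters in 3′UTRs. The miR-194 seed had 978, 554, 506, 1020 and 828 distinct sites in stage order, or 2626 in all. The miR-192/miR-215 seed had 1240, 418, 337, 662 and 682, or 2598 in all, out of 1764811 distinct sites of any miRNA. Since the libraries differ in the number of clusters, the share of 3′UTR clusters that hold a site was compared. For miR-194 it was 0.755% (95% Wilson interval 0.675 to 0.846), 0.9496%, 1.08%, 1.19% and 1.54% (1.36 to 1.74) from the first stage to the last. The share rose at each step, and the intervals of the first and last stage do not overlap. For miR-192/miR-215 it was 0.611% (0.539 to 0.693), 0.565%, 0.551%, 0.608% and 0.861% (0.729 to 1.02), so the first 4 stages lay within each other's intervals and the adult stood above them. The change from e12.5 to adult was 1.03 for miR-194 (2.04-fold) and 0.49 for miR-192/miR-215 (1.41-fold) on the log2 scale. Over 380 seeds with at least 50 such clusters the median change was -0.10, and 10.3% of them rose at least 1.5-fold. miR-194 ranked 14 and miR-192/miR-215 49 among them.

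In coding sequences (CDS) the 2 seeds changed by similar amounts from end to end. The share of CDS clusters with a miR-194 site was 0.495%, 0.707%, 0.624%, 0.633% and 0.767% from e12.5 to adult. For miR-192/miR-215 it was 0.607%, 0.488%, 0.476%, 0.562% and 0.920%. The log2 changes from e12.5 to adult were 0.63 and 0.60, that is 1.55-fold and 1.52-fold, and 9.97% of 391 seeds rose at least 1.5-fold. For miR-192/miR-215 the lower values of the late embryo had intervals that overlap that of e12.5, with 0.400 to 0.565 at e18.5 and 0.547 to 0.673 at e12.5. The adult, at 0.830 to 1.02, stood above them. miR-194 was already higher at e15.5, with 0.616 to 0.811 against 0.441 to 0.556 at e12.5.

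**Figure D2:**
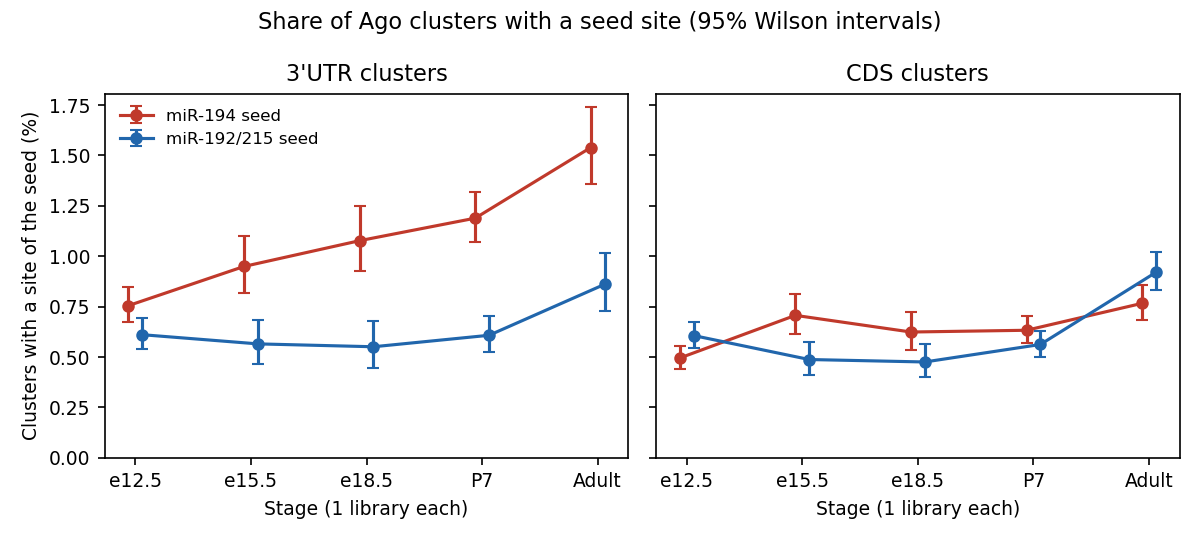
Percent of 3′UTR clusters (left) and of CDS clusters (right) that hold a site of either seed at each stage, with 95% Wilson intervals as bars. In the 3′UTR the miR-194 seed climbs from 0.755% to 1.54%, and the miR-192/miR-215 seed stands between 0.551% and 0.611% until the adult library, where it is at 0.861%.

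The 2 seeds differed in how completely their sites matched. Of the miR-194 sites, 8mers made up 14.6% (12.55 to 17.0), 9.03%, 18.2%, 15.7% and 20.8% (18.1 to 23.7) in stage order. Of the miR-192/miR-215 sites, 8mers made up 1.21% (0.734 to 1.99), 1.20%, 2.67%, 3.17% and 4.84% (3.47 to 6.72). Over all seeds the share of 8mers lay between 7.23% and 7.69% at every stage, so miR-192/miR-215 had fewer in each library. miR-194 had more, beyond its interval in each library but that of e15.5 (6.91 to 11.7). 6mers fell from 41.1% to 29.8% of miR-194 sites and from 68.5% to 57.8% of miR-192/miR-215 sites between e12.5 and adult, against 54.0% and 54.3% over all seeds. The higher adult share of 8mers held against both e12.5 lists for miR-192/miR-215, at 0.276% and 1.51%. For miR-194 the lists gave 19.8% (15.4 to 25.1) and 13.98% (11.8 to 16.5), and the first overlaps the adult value.

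**Figure D3:**
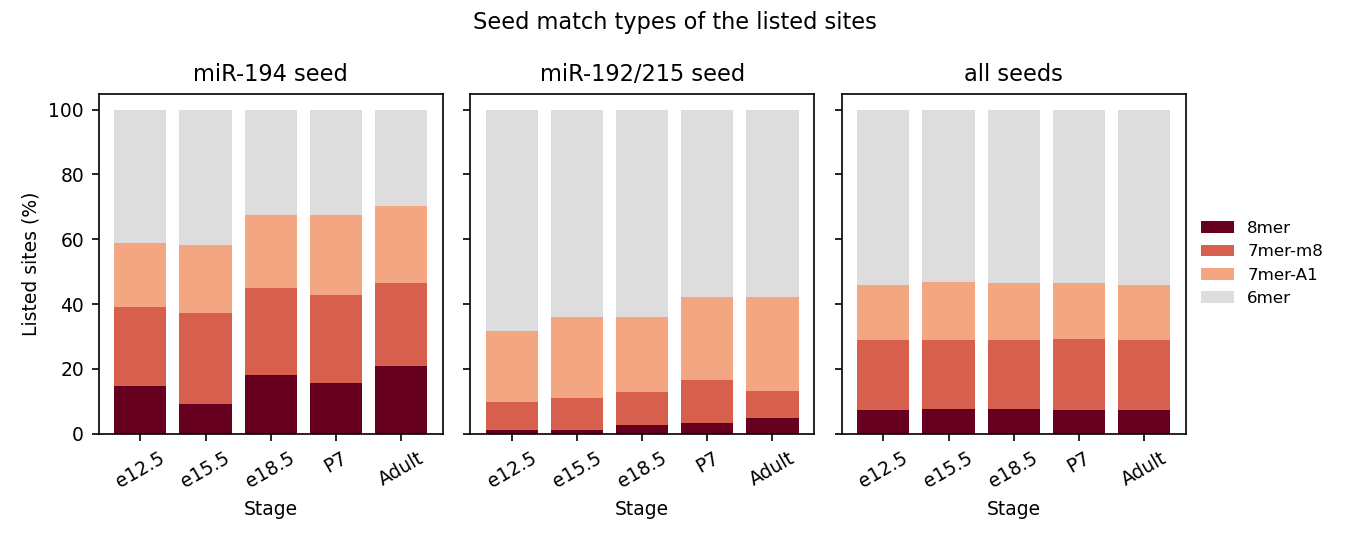
Percent of the listed sites that are 8mers, 7mer-m8, 7mer-A1 and 6mers at each stage, for the miR-194 seed, the miR-192/miR-215 seed and all seeds. The 8mer part of the bars reaches 20.8% for miR-194 and 4.84% for miR-192/miR-215 in adult liver, while the bars of all seeds stay level.

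The CDS share of sites was higher in adult than at e12.5 for both seeds. The CDS held 29.6% of the e12.5 and 36.1% of the adult miR-194 sites, and 28.5% and 52.6% of miR-192/miR-215 sites, where all seeds went from 34.4% to 53.0%. The 3′UTR held 30.5% and 29.6% of miR-194 sites and 19.4% and 20.1% of miR-192/miR-215 sites, against 22.8% and 19.6% over all seeds. In adult liver the CDS interval of miR-192/miR-215, 48.9 to 56.4, held the value of all seeds. Those of miR-194 did not, with 32.9 to 39.4 in the CDS, below all seeds, and 26.6 to 32.8 in the 3′UTR, above them.

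Most sites were listed in a single library. Of 801 miR-194 sites in 3′UTRs, 66.4% (63.1 to 69.6) were listed at 1 stage and 1.87% at all 5. For miR-192/miR-215, 76.2% (72.5 to 79.5) of 554 sites were listed at 1 stage and 0.361% at all 5, and over all seeds the values were 78.5% and 0.585%. Part of the clusters also held sites of other abundant miRNAs. Of the 3′UTR clusters with a miR-194 site, 29.2%, 41.0%, 25.3%, 27.6% and 25.3% from the first stage to the last also held a site of another of the 20 most abundant miRNAs of that library, so their reads cannot be assigned to miR-194 alone. For miR-192/miR-215 this was so for 16.6%, 8.74%, 10.1%, 18.3% and 18.2%, and over all 3′UTR clusters such sites were held by between 17.9% and 22.9%.

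miR-194 sites were found in the 3′UTRs of 742 genes and miR-192/miR-215 sites in those of 509. The 2 seeds shared 78 of these genes, which is 10.5% of the miR-194 genes and 15.3% of the miR-192/miR-215 genes. Of the 11059 genes with any 3′UTR site, 4.60% had one of miR-192/miR-215 and 6.71% one of miR-194. In the CDS, 697 genes had a miR-194 site and 804 a miR-192/miR-215 site. When a gene had to be listed in at least 2 libraries, 282 and 143 genes were left in the 3′UTR. At all 5 stages there were 16 genes for miR-194 and 2 for miR-192/miR-215.

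Reads at sites were next compared between the libraries, as reads in 1000000 cluster reads (scaled reads). Reads given for single sites are the deposited, unscaled numbers, and their log2 changes from e12.5 to adult use scaled reads. Among 53 miR-194 3′UTR sites listed in the e12.5 and adult libraries, 20 were at least 2-fold higher in the adult (37.7%) and 13 at least 2-fold lower, with a median log2 change of 0.46. They include 1 site of Entpd4 and 1 of its near-identical copy Gm21685 with the same letters and reads, and with such copies counted once the median was 0.29. With at least 10 reads in both libraries it was 0.09 over 48 sites, against 0.20 for all seeds. Over all seeds 32.7% of 12504 such sites were at least 2-fold higher, and the median was 0.17. By type, the 13 miR-194 8mers had a median of 1.39 and the 14 6mers one of -0.20, against 0.15 and 0.16 for the 8mers and 6mers of all seeds. Of 28 miR-192/miR-215 sites, 14 were at least 2-fold higher and 8 at least 2-fold lower, with a median of 0.92. In the CDS, 46 of 84 miR-194 sites (54.8%) and 30 of 69 miR-192/miR-215 sites (43.5%) were at least 2-fold higher, with medians of 1.29 and 0.65, against 40.8% of 31681 sites and a median of 0.53 over all seeds. The e12.5 lists decided the sign of the 3′UTR medians. Against the first list alone they were -2.19 for miR-194 (24 sites), -3.36 for miR-192/miR-215 (6 sites) and -2.56 over all seeds, and against the second alone 0.45, 0.52 and 0.01. miR-194 stood above the median of all seeds in both, and miR-192/miR-215 only against the second.

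Reads at a site can depend on how much of its mRNA is present, and mRNA levels were not analysed here. As a measure within the same libraries, each site was set against the other clusters of its gene, a comparison chosen after seeing the data. In the 3′UTR, 29 of 52 miR-194 sites (55.8%) and 14 of 25 miR-192/miR-215 sites (56.0%) changed at least 2-fold more upward than the rest of the gene, against 50.8% of 12005 sites of all seeds. For the 3′UTR 8mers of miR-194 it was 11 of 13 sites (84.6%), where 8mers of all seeds gave 48.9%. With the Entpd4 and Gm21685 copies counted once it was 10 of 12. In the CDS it was 57 of 82 miR-194 sites (69.5%) and 31 of 66 miR-192/miR-215 sites (47.0%), against 52.6% of 30122 sites. The members' shares were thus near those of all seeds, with higher ones for the miR-194 8mers of 3′UTRs and the miR-194 sites of the CDS.

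**Figure D4:**
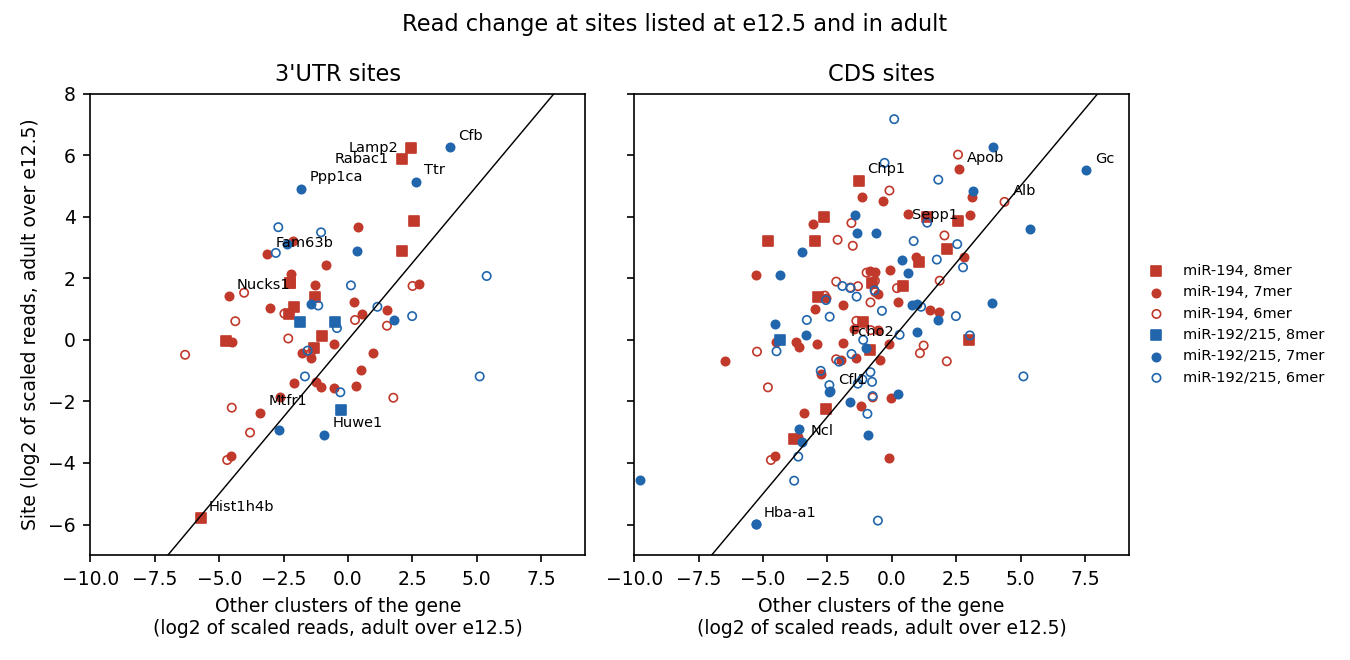
Each point is a site listed in the e12.5 and adult libraries, with its log2 change of scaled reads on the vertical axis and that of the other clusters of its gene on the horizontal axis, for the 3′UTR (left) and the CDS (right), and the line marks equal change. Of the 13 miR-194 8mers in 3′UTRs, 11 lie at least 2-fold above the line, Lamp2 and Rabac1 among them, while Hist1h4b lies on it.

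The miR-194 site with most reads in adult liver was the 8mer of Lamp2, a membrane protein of lysosomes. It had 180, 427, 419, 593 and 7423 reads from e12.5 to adult. The 3 middle stages were alike and the adult stood far above them, with a log2 change of 6.22 from e12.5 (74.4-fold, 95% counting interval 6.00 to 6.44). The other clusters of Lamp2 rose by 2.43. Rabac1, a receptor for Rab proteins in the Golgi, had 58, 102, 186, 66 and 1870 reads at its 8mer, a change of 5.86 (5.48 to 6.26) where the rest of the gene rose by 2.08. With the lists summed, the step from P7 to adult was the largest in both genes. The e12.5 reads were split over the 2 lists as 5 and 175 for Lamp2 and as 41 and 17 for Rabac1. For Lamp2 the single lists do not settle which step was largest, since the first holds so few reads.

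Further 3′UTR sites of miR-194 with reads mostly after birth were in Fam63b, Igfals, Apoa5 and Sgpp1. Fam63b, a deubiquitinase, had 117, 57, 36, 361 and 447 reads at its 7mer-A1, which rose by 2.78 (2.49 to 3.09) from e12.5 to adult, whereas its other clusters fell by 3.15. In scaled reads the site was highest at P7, with 21.9 against 18.0 in the adult. The 8mer of Igfals, the plasma protein that stabilises circulating insulin-like growth factors, was listed only after birth, with 67 reads at P7 and 593 in adult liver. Apoa5, an apolipoprotein that lowers plasma triglycerides, was likewise listed with 20 reads at P7 and 192 in the adult. Sgpp1, a phosphatase of sphingosine 1-phosphate, had 65 reads at e15.5, 60 at P7 and 213 in adult liver and was not listed at e12.5 and e18.5. Cflar, an inhibitor of caspase activation, had 9, 23, 96 and 63 reads at e12.5, e18.5, P7 and in the adult, a rise of 3.66 against 0.38 in its other clusters. Nucks1, a nuclear protein, had 50, 9 and 94 reads in the embryonic libraries and 74 in the adult, and rose by 1.42 where its other clusters fell by 4.63. A site that is not listed had fewer than 5 reads or no cluster, which is not the same as no binding. No cluster of Igfals or Apoa5 was listed at e12.5, but both genes had other clusters at P7 and in the adult. The Igfals site went from 4.06 to 23.8 scaled reads between these libraries and its other clusters from 16.5 to 38.2. The Apoa5 site went from 1.21 to 7.72 and its other clusters from 47.7 to 71.0.

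The miR-194 3′UTR sites of Hist1h4b, Mtfr1 and Actb had fewer scaled reads in adult than at e12.5. Hist1h4b, a histone H4 gene of a family with near-identical copies whose reads may be shared, had 6598, 3825, 330, 321 and 66 reads at an 8mer annotated to its 3′UTR. It fell by 5.79, and its other clusters fell by 5.73. Mtfr1, a regulator of mitochondrial fission, had 5807, 4457, 199, 36 and 626 reads at a 7mer-m8 that is annotated both to the 3′UTR and to the CDS, with a change of -2.36 against -3.42 in the rest of the gene. Actb, cytoplasmic actin, had 870, 1265, 589, 886 and 164 reads and changed by -1.56 against -0.55. In these 3 genes the site moved in the same direction as the rest of the gene. Degs1, a desaturase of sphingolipid synthesis, had 410, 334, 144, 213 and 116 reads, and its change of -0.97 went against one of 0.52 in its other clusters. Otud4, a deubiquitinase, changed by -1.41 against -2.09 and the kinase gene Map3k11 by -0.59 against -1.44. Of 23 miR-194 3′UTR sites that were lower in the adult, the other clusters of the gene were higher for 4 (17.4%), against 21.3% over all seeds. Mpp1 and Nt5c3, which serve the red cell membrane and red cell nucleotide breakdown, had the largest falls after Hist1h4b among 3′UTR sites listed in both the e12.5 and adult libraries, with at least 50 reads in either, of -3.90 and -3.77. Their other clusters changed by -4.69 and -4.53.

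In the CDS, the 8mer of Chp1, a calcium-binding partner of sodium-proton exchangers, had 271, 58, 533, 1199 and 5410 reads in stage order. It rose by 5.17 (4.99 to 5.35), while the other Chp1 clusters changed by -1.27. This was the widest gap between a site and its gene among the miR-194 sites named here. Sepp1, selenoprotein P, which carries selenium from the liver to other organs, had 159, 293, 1184, 8650 and 1480 reads and so peaked at P7. Its change from e12.5 to adult was 4.07, against 3.05 for its other clusters. Fcho2, which takes part in clathrin-mediated endocytosis, ended near its first level in scaled reads, with 2164, 867, 1128, 661 and 1120 reads and a change of -0.10 (-0.21 to 0.00) against -1.90 in its other clusters. Prc1, which bundles microtubules during cytokinesis, had 1331, 543, 53, 866 and 18 reads, and its other clusters went from 18058 reads at e12.5 to none listed in the adult.

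**Figure D5:**
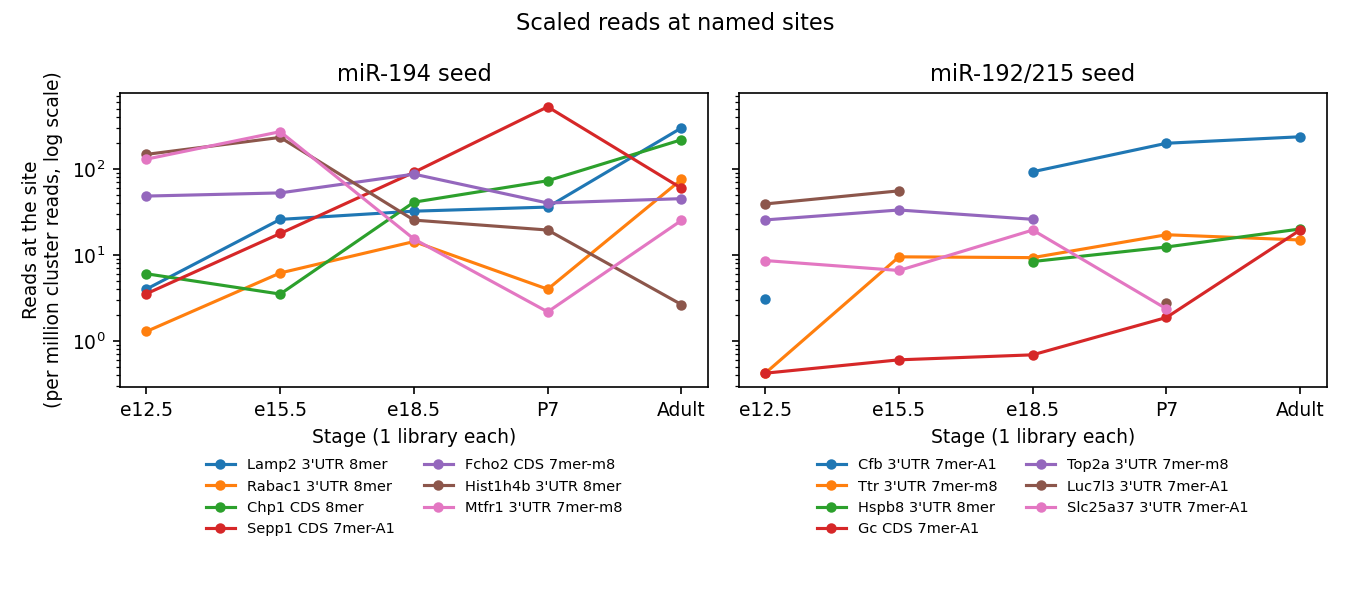
Scaled reads, per 1000000 cluster reads (log axis), at 7 miR-194 sites (left) and 7 miR-192/miR-215 sites (right) through the 5 stages, with gaps where a site was not listed. Lamp2, Chp1 and Cfb end highest in adult liver, Sepp1 peaks at P7, and Hist1h4b, Luc7l3 and Top2a are highest in the embryo.

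Among the miR-192/miR-215 3′UTR sites listed in both the e12.5 and adult libraries, with at least 50 reads in either, those with the largest rises were in Cfb, Ttr and Ppp1ca, the first 2 of which encode secreted plasma proteins. The 7mer-A1 of Cfb, complement factor B, is annotated to the CDS as well. It was not listed at e15.5 and had 138 reads at e12.5, then 1202 at e18.5, 3266 at P7 and finally 5857 in the adult. The site rose by 6.26 (6.01 to 6.51), and the other clusters of Cfb by 3.94. Ttr, transthyretin, the carrier of thyroid hormone and retinol-binding protein, had 19, 157, 121, 283 and 371 reads at its 7mer-m8 and rose by 5.14 against 2.62. Ppp1ca, a catalytic subunit of protein phosphatase 1, acts inside cells, and its site differed from the rest of the gene. Its 7mer-A1 had 12 reads at e12.5 and, at e18.5, P7 and in the adult, 184, 154 and 200, a rise of 4.91 (4.07 to 5.89) where the other clusters fell by 1.82. The Cfb and Ppp1ca sites were found in a single list of the e12.5 and e18.5 tables, and the Ttr site in a single list of the e12.5 and e15.5 tables. Hspb8, a small heat shock protein, had the 3′UTR 8mer with most adult reads, with 109, 204 and 498 in the last 3 libraries. The 8mer of Mapk14, the kinase p38 alpha, had 12 reads at e12.5, 116 at P7 and 10 in the adult. The next adult 8mers, of Sppl2a, Klf9, Ncbp2 and Nlrc5, had 98, 55, 20 and 17 reads.

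Other miR-192/miR-215 sites were seen mostly in the embryo. Top2a, the topoisomerase of dividing cells, had 1144, 549 and 337 reads at its 7mer-m8 in the 3 embryonic libraries and was not listed after birth. Its other clusters also fell, from 19127 reads to 30. Slc25a37, the mitochondrial iron importer of erythroid cells, had 386, 109, 253 and 39 reads up to P7 and was not listed in the adult, and its other clusters fell by 7.33. Luc7l3, a splicing factor, had 1753 and 916 reads in the first 2 libraries and 46 at P7. Among 3′UTR sites with at least 50 reads in the e12.5 or the adult library and listed in both, which leaves out these 3, the largest falls were those of Huwe1, a ubiquitin ligase, the proliferation antigen Mki67 and the transcription factor Atf1, which lay between -3.08 and -2.94.

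Among the CDS sites of the members, the one with most reads was in the alpha-globin genes. Hba-a1 and Hba-a2 each carried a 7mer-A1 with 59227, 41288, 12692, 2464 and 520 reads from the first stage to the last. The copies had the same numbers and the same site sequence, so their reads cannot be separated. The site fell by 5.98 and the other Hba-a1 clusters fell by 5.28, along with the blood-cell miRNAs. In the other direction, Gc, the vitamin D-binding protein of plasma, had 19, 10, 9, 31 and 485 reads. Its rise of 5.52 was smaller than that of its other clusters, 7.56. The sites of Ncl, nucleolin, and Cfl1, cofilin, changed by -3.33 and -1.66, and their other clusters by -3.47 and -2.42.

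The e12.5 lists changed the size of several of these values. Lamp2 rose by 9.79 against the first list and 5.68 against the second, and Rabac1 by 4.76 and 7.05. Actb changed by -0.78 and -1.83, Hist1h4b by -6.35 and -5.41, Prc1 by -4.36 and -5.68 and Cfl1 by -2.59 and -0.81. Fcho2 changed sign, with 0.76 and -0.39. Huwe1 changed by -3.93 and -2.35, Mki67 by -4.07 and -1.87 and Atf1 by -4.23 and -1.14. The sites of Fam63b, Nucks1, Map3k11, Sepp1, Cflar, Gc, Ttr, Cfb and Ppp1ca were listed at e12.5 in the second list alone and that of Otud4 in the first alone. Against that list, Otud4 changed by -3.01, Map3k11 by -1.17, Fam63b by 2.21 and Sepp1 by 3.49.

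Few clusters held sites of both seeds, with 5, 1, 1, 2 and 8 from e12.5 to adult. At e12.5, 978 clusters held a miR-194 site and 1239 a miR-192/miR-215 site, out of 208193. In the adult these numbers were 828, 682 and 81194. The number of shared clusters expected from such totals was not worked out, so no excess or lack can be read from these counts. In the adult, clusters with both seeds included the 3′UTRs of Igfals and Tor1b and the CDS of Ugt2b36. Ugt2b36 is an enzyme that conjugates glucuronic acid, and its cluster had 2593 reads. In Igfals the miR-192/miR-215 7mer-m8 had 37 reads at P7 and 120 in the adult and lay 27 bases downstream of the miR-194 8mer. Besides Igfals, the genes with the highest mean scaled reads at 3′UTR sites of both seeds were Peg3, Ammecr1, Zfp568 and Epb4.1. In adult liver Zfp568 had 51 reads at miR-194 sites and 24 at miR-192/miR-215 sites of its 3′UTR, while Peg3, Ammecr1 and Epb4.1 had no listed 3′UTR site of either seed.

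Most genes listed from general knowledge as candidate targets of the members had no site of the matching seed. A miR-192/miR-215 site lay in the 3′UTR of 5 of 20 candidate targets of that seed. They were the replication genes Dtl and Cdc7, the apoptosis inhibitor Xiap, the transcription factor Egr1 and the kinase Wnk1, each with 126 reads or fewer and none of them in adult liver. Over all genes with any 3′UTR site, 4.60% had a miR-192/miR-215 site. Of 21 candidate targets of miR-194, 6 had a 3′UTR site, where 6.71% of all genes had one. Cdh2, N-cadherin, had 93 and 24 reads in the first 2 libraries and 20 and 14 in the last 2, and Thbs1, thrombospondin 1, had 82, 43, 28 and 28 reads up to P7. Itga9, Ptpn12, Ptpn13 and Fzd6 were each listed at 1 stage, with 28, 46, 21 and 7 reads. In the CDS, 2 of the 20 miR-192/miR-215 candidates, Ercc3 and Wnk1, had a site of that seed, where 5.92% of all genes with any CDS site had one. The Wnk1 CDS sites had the same match type and reads as its 3′UTR sites, so they may be the same sites under both annotations. Of the 21 miR-194 candidates, 1, Rheb, had a miR-194 CDS site, against 5.13% of all genes.

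Of the listed regulators of the miRNA genes, Hnf4a and Foxa2, which drive hepatocyte genes, had miR-192/miR-215 CDS sites. That of Hnf4a was listed in adult liver alone, with 34 reads. Foxa2 had 57 reads at e18.5 and 38 in adult liver, or 4.38 and 1.53 scaled reads. Over all genes with any CDS site 5.92% had one, and the list is too short to set apart from that share. Of 15 genes of hepatocyte function, 4 had a miR-194 CDS site and 5 a miR-192/miR-215 CDS site, where 5.13% and 5.92% of all genes with any CDS site had one. The miR-194 6mer of Alb, albumin, had 323, 306, 564, 691 and 3997 reads, that of Apob, the protein of very-low-density lipoprotein, which is a 7mer-A1, had 29, 39, 85, 28 and 757, and the 8mer of Cps1, the first enzyme of the urea cycle, had 339, 321 and 1220 in the last 3 libraries, where alone it was listed. All 3 were highest in adult liver. From e12.5 to adult the Alb site changed by 4.48 and its other clusters by 4.38, and the Apob site by 5.56 against 2.60. In 3′UTRs, 4 of the 15 had a miR-192/miR-215 site and 1, Insig1, a miR-194 site, against 4.60% and 6.71% of all genes. The 6mer of G6pc, glucose-6-phosphatase, had 44, 990 and 1909 reads in the last 3 libraries, and that of Pck1, which commits carbon to gluconeogenesis, 108 at P7 and 31 in the adult. The 7mer-m8 of Scd1, a fatty acid desaturase, was listed at e15.5 alone, with 67 reads.

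Of 10 fetal and progenitor genes, none had a miR-194 3′UTR site and 2, Igf2 and Igf2bp1, had a miR-192/miR-215 one, with 79 reads at P7 and 117 reads at e12.5. Of 10 genes of the cytoskeleton and matrix, 2 had a miR-194 3′UTR site (Itga9, Thbs1) and 2 a miR-192/miR-215 one, Itgb1 with 27 reads at P7 and Fn1 with 45 in adult liver. Over all genes the shares were 6.71% for miR-194 and 4.60% for miR-192/miR-215, so that a list of 10 genes is too short to set apart from them.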

How the data were processed

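Ago HITS-CLIP tables of miRNA-target interactions, 1 per stage, were analysed. The authors' processing notes name Bowtie, mm9 and mm10. As deposited, the reads of a site are a coverage signal, named for the peak at all stages but e12.5, where the target is named, in unscaled whole numbers of at least 5. Conservation and duplex energy are deposited as scores. The whole number in each interaction name was used as its miRNA's reads, a meaning that the tables do not spell out.

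Samples were grouped by stage from the labels. The 2 lists of each embryonic table were summed, overlapping clusters were joined, and of several gene copies of a miRNA the highest number was used. Marker names 142, 126, 145 and 486 were matched to the listed 142a, 126a, 145a and 486a. Reads were scaled to 1000000 miRNA reads (rpm) or 1000000 cluster reads. With 1 sample per stage, shares were given Wilson 95% intervals and ratios of reads at sites exact counting intervals. The intervals of the abundance changes were normal approximations on the log2 scale, which are rough at the few reads of miR-215-5p. Those of the median read changes came from the ranked values of the sites, and no test was run. Thresholds for the counts were 2-fold, and 1.5-fold for shares. Depth is given as miRNA reads and clusters per library, and rare sites near 5 reads are the least precise. The members and gene lists were chosen with earlier results of these data known. Named genes were those with the highest mean reads in 3′UTRs (10 per seed) and CDS (5). To these came the 3 largest rises and falls among 3′UTR sites listed at e12.5 and in adult, with at least 50 reads in either. The 5 strongest adult 8mers, the 5 leading genes with both seeds, and all list members were added. Alternatives were other read minima, seed lengths, scalings, denominators and single lists. Sequence from chromosome 18 is not printed. Some members of the list of regulators are not reported here. Code was tested on simulated data. Python 3.11.15, numpy 2.4.6, pandas 2.3.3, scipy 1.17.1 and matplotlib 3.10.9 were used.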

Additional observations from a re-analysis of the deposited data

How the results depend on the processing

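Of 46 alternatives to 10 results, 27 stayed within the interval of the result or within 1.5 times the count, 17 moved further and 2 changed sign. The abundance change of miR-194-5p was 3.63 with gene copies summed, 2.69 without the 3 blood-cell miRNAs in the total, and 3.85 and 3.96 against the first and second e12.5 list. That of miR-192-5p was 2.35, 1.52, 2.40 and 2.89 in the same order. That of miR-215-5p, from few reads, was 0.47 against the first list and 0.16 with 10 rpm added. The change in the miR-192/miR-215 share of 3′UTR clusters was 0.88 with at least 7 matched bases. The median read changes in 3′UTRs turned to -2.19 for miR-194 and -3.36 for miR-192/miR-215 against the first e12.5 list, where all seeds gave -2.56, and why the lists differ was not tested. Counting sites of the same letters and reads once, chosen after seeing the data, gave 0.29 and 0.92. Counts of genes in the 3′UTR were 473, 197 and 26 (miR-194, miR-192/miR-215, both) with at least 7 matched bases and 282, 143 and 23 with at least 2 libraries. No paired analysis was possible because each stage has 1 sample. Depth limits miR-215-5p and sites near 5 reads most.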
